A study of Mus musculus with 16 samples.

Results

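Glycolysis genes were followed across dendritic cells (DCs) of the mouse spleen with and without TRIM33, a chromatin-associated E3 ubiquitin ligase and transcriptional cofactor. The 10 genes, Slc2a1, Hk1, Hk2, Gpi1, Pfkl, Aldoa, Pgk1, Eno1, Pkm and Ldha, were chosen by name as the glucose transporter GLUT1 and enzymes that carry glucose to pyruvate and lactate. All 10 were found among the 18232 genes listed in the plasmacytoid DC (pDC) table, the conventional DC (cDC) table or both, and all 10 passed the filter on low values in both tables. RNA-seq values in TPM, transcript abundance per length scaled to the same total in each library, were used for 16 libraries: 3 WT and 3 cKO of pDCs, 2 WT and 2 cKO of cDC1s, and 3 WT and 3 cKO of cDC2s. WT animals were Trim33 fl/fl and cKO animals Trim33 fl/fl Itgax-Cre, on a C57BL/6 background and aged 6 to 8 weeks, so that both groups carried the floxed allele and Cre was driven by the promoter of Itgax, which encodes CD11c. pDCs were sorted as CD11c+ SiglecH+ cells, cDC1s as CD11c+ SiglecH- MHC II+ CD24+ CD172a- cells and cDC2s as the CD24- CD172a+ counterpart. Each library was a biological repeat pooled over several mice, with more animals in a cKO pool than in a WT pool. The pDC and cDC tables were normalised separately, and no test was made between them.

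Glycolysis splits glucose into pyruvate in the cytosol, yielding ATP and NADH, and lactate dehydrogenase regenerates NAD+ by turning pyruvate into lactate. Hexokinases trap glucose in the cell, phosphofructokinase commits the sugar to breakdown, and pyruvate kinase makes the last ATP-yielding step. DCs that are activated through pattern recognition receptors are known to raise glycolysis.

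Trim33 was measured first as a check of the labels. It lay between 20.6 and 23.8 TPM in WT pDCs and between 11.7 and 16.5 TPM in cKO pDCs. In cDC1s it was 15.5 and 18.2 TPM in WT against 7.71 and 7.88 TPM in cKO, and in cDC2s 17.2 to 20.6 TPM against 7.13 to 8.07 TPM. The cKO libraries were lower than every WT library of their subset, with residual reads in each. The change was -0.68 in pDCs (log2, limma adjusted p = 0.0301, above the limit of 0.01, and 0.00361 with same-numbered pDC libraries paired), -1.02 in cDC1s (limma adjusted p = 0.000349) and -1.17 in cDC2s (limma adjusted p = 0.000126). The 8 markers fixed for cDC1s summed to 3463 to 3546 TPM in WT and 3042 to 3106 TPM in cKO cDC1s, against 239 to 295 TPM in WT cDC2s. The 8 markers of cDC2s summed to 1637 to 1764 TPM in WT and 1398 to 1615 TPM in cKO cDC2s, and the 8 of pDCs to 17070 to 17200 TPM in WT and 17810 to 19060 TPM in cKO pDCs. The larger sum of pDC markers without TRIM33 came from Cox6a2, whose group mean in pDCs went from 1189 to 3283 TPM. It was called higher there (log2 1.46, limma adjusted p = 0.00128), and no other marker of that list was called in pDCs. Ly6d also had a higher mean after deletion, whereas Siglech, Bst2, Tcf4, Ccr9, Klk1 and Pacsin1 had lower means. Single markers changed in cKO cDCs as well. In cDC1s Itgae (-2.70), Cadm1 (-1.74) and Clec9a (-1.33), markers of cDC1s, were called lower. Of the cDC2 markers Itgam (2.10) was called higher in cDC1s, and Esam (-2.29) and Cd4 (-1.90) were called lower. Of the pDC markers 3 were called higher in cDC1s, the largest being Cox6a2 (3.53), and 2 lower, Pacsin1 (-1.61) and Ccr9 (-0.97). In cDC2s Cd4 (-1.37), Esam (-1.17) and Irf4 (-1.08), markers of cDC2s, were called lower, and Itgam (1.03) and Mgl2 (1.14) higher. Of the pDC markers 1 was called in cDC2s, Cox6a2, which was higher (3.35, limma adjusted p = 4.81e-05). The part of these marker shifts in the glycolysis values was not tested. Read depth, which the tables do not list, was estimated at 18260000 to 20200000 reads per library from the steps between low values of single-exon genes, so that 1 TPM on a transcript of 2000 bases stood for 16.8 to 21.9 reads. Replicates of a group correlated at 0.981 to 0.994 on the log2 scale. In bulk samples of this kind, fewer cells making a transcript and less of it per cell cannot be told apart.

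Together the 10 transcripts took up more of the messenger RNA of cKO cDCs than of WT cDCs. Their summed level was 2220 and 2043 TPM in the WT cDC1 libraries and 3013 and 2952 TPM in the cKO cDC1 libraries. In cDC2s the sum was 1651, 1707 and 1867 TPM in WT and 2379, 2329 and 2381 TPM in cKO, so the groups did not overlap in either subset. In pDCs it was 1449, 1485 and 1406 TPM in WT and 1578, 1501 and 1542 TPM in cKO, again without overlap. For single genes, every cKO library lay above every WT library for 52.1% of all genes tested in cDC1s. The share was 16.3% in cDC2s and 10.8% in pDCs. Ldha was the most abundant of the 10 in WT cDC1s, Eno1 in WT cDC2s and Gpi1 in WT pDCs. Slc2a1, Hk1, Hk2 and Pfkl were at or under 57.7 TPM in every library, while the other 6 were at or above 79.8 TPM.

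**Figure D1:**
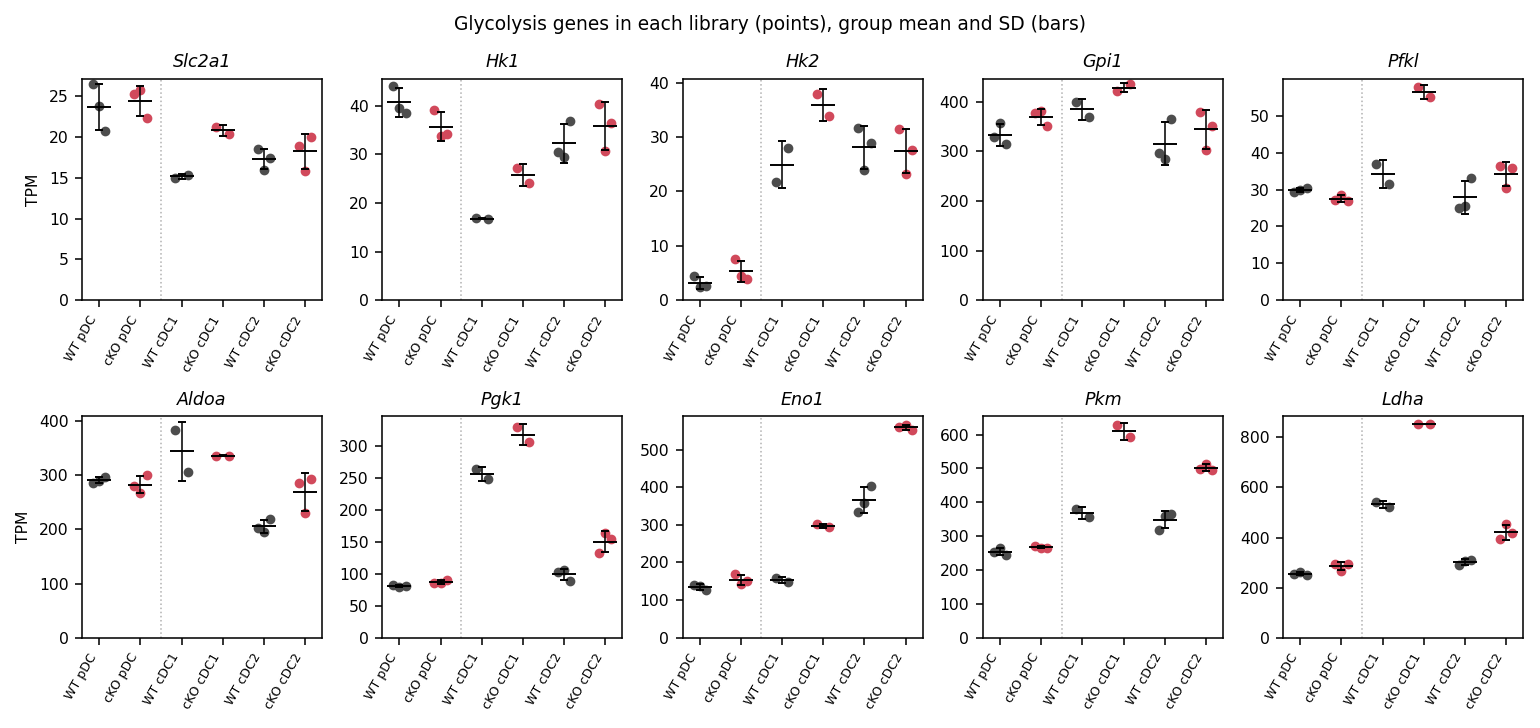
Level in TPM (vertical axes, each starting at 0) of the 10 glycolysis genes in the 6 groups, with grey points for WT libraries, red points for cKO libraries, a bar for the group mean and whiskers for the SD. The dotted line parts the pDC table from the cDC table, which were normalised separately. Eno1, Pkm and Ldha lie higher in every cKO library than in every WT library of cDC1s and of cDC2s, while in pDCs the groups lie close together.

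The sequence upstream of the 5 genes that passed the test in cKO cDC1s or cDC2s is shown because these are the transcripts that rose. Each stretch is the 250 bases before a RefSeq transcript start (GRCm38.p6) that lies outside every exon of the GENCODE annotation used here, read 5′ to 3′ on the strand of the gene. The coordinates are chr10:78009808-78010057 on the minus strand for Pfkl and, on the plus strand, chrX:106186850-106187099 for Pgk1, chr4:150236458-150236707 for Eno1, chr9:59656977-59657226 for Pkm and chr7:46845554-46845803 for Ldha. The Eno1 and Ldha stretches belong to the start listed first for each gene, and the Pkm stretch to the start listed second. Capitals mark ACGTG or GCGTG on either strand, the core letters of the hypoxia response element, which also make up part of the E-box CACGTG that MYC-family factors bind.
Pfkl: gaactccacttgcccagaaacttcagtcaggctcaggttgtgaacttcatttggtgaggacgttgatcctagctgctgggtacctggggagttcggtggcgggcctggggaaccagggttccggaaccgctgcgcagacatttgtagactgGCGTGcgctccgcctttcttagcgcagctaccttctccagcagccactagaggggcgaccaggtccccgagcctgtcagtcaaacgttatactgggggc
Pgk1: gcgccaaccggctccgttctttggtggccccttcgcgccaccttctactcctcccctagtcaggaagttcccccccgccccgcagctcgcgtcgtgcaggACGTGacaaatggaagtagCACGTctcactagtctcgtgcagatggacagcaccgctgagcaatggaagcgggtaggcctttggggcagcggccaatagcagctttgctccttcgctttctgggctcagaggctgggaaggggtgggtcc
Eno1: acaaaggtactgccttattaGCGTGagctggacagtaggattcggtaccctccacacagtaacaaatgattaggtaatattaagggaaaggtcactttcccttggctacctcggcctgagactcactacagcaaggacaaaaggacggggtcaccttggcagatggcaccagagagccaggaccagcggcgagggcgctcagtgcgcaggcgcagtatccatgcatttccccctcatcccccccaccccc
Pkm: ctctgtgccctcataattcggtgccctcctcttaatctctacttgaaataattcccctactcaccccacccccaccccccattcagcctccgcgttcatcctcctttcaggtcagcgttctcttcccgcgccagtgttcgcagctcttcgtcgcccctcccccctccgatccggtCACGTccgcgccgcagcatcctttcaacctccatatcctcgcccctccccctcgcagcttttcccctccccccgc
Ldha: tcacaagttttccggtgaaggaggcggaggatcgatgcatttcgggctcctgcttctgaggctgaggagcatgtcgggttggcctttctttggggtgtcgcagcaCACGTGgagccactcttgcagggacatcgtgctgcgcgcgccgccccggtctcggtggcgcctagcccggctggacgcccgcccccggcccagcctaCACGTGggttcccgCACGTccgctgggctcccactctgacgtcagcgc
Of all 32817 promoter windows of 300 bases in the reference table, 43.8% held the response element core, 7.15% the E-box and 35.6% the GC box GGGCGG. Among the 17 windows of the 10 genes, 13 held the core, 11 the GC box and 1 the E-box, the last being the first Ldha window. That Ldha stretch held 2 E-boxes, each of which counts as a core match on both strands, and 1 further core. Gpi1 had no core match in its single window. Some windows of Aldoa and of Eno1 overlapped, so the 17 windows are not independent. The median GC content over all promoters was 52.7%, and the comparison was not matched for GC content. These matches are letters in a window and not measured sites of binding.

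In cDC1s, 4 of the 10 genes rose in cKO cells and none fell. These were Pfkl, the liver-type phosphofructokinase, Eno1, which makes phosphoenolpyruvate, Pkm, pyruvate kinase, and Ldha, which makes lactate. The call required an adjusted p of at most 0.01 and a change of at least 0.5 on the log2(TPM + 1) scale in limma, and over all 11411 genes tested 15.8% were called higher and 6.56% lower. The median change of the 10 genes was 0.55, against 0.17 over all genes tested.

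At the upper end of the pathway, the glucose transporter gene Slc2a1 was 14.95 and 15.4 TPM in WT cDC1s and 21.3 and 20.4 TPM in cKO cDC1s. The change was 0.43 ± 0.13 (log2, SE; limma adjusted p = 0.0227) and did not pass. Hk1 was 16.9 and 16.7 TPM in WT and 27.3 and 24.1 TPM in cKO, a difference of 0.58 ± 0.15 (limma adjusted p = 0.0123) that missed the limit on p narrowly. Hk2, the inducible hexokinase, was 21.8 and 28.0 TPM in WT and 38.0 and 33.8 TPM in cKO, with a difference of 0.52 ± 0.18 (limma adjusted p = 0.0415). For these 3 genes both cKO libraries were above both WT libraries, which was true of 9 of the 10 genes and of 52.1% of all genes tested. Gpi1, the isomerase that follows hexokinase, was 400 and 370 TPM in WT and 422 and 435 TPM in cKO, a difference of 0.15 (95% interval -0.16 to 0.47). Pfkl was 36.9 and 31.6 TPM in WT and 57.7 and 55.1 TPM in cKO, an increase of 0.71 ± 0.15 (limma adjusted p = 0.00516). Its call was the least firm of the 4: leaving out any 1 of the 4 cDC1 libraries gave a limma adjusted p of 0.0146 to 0.0438.

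Aldoa, the aldolase that cleaves the phosphorylated sugar, was the exception in cDC1s. It was 383 and 306 TPM in WT and 337 and 336 TPM in cKO, a difference of -0.02 (95% interval -0.34 to 0.29), and its cKO libraries lay between the WT libraries. Pgk1, which makes the first ATP of the pathway, was 264 and 249 TPM in WT and 329 and 307 TPM in cKO, a difference of 0.31 ± 0.13 (limma adjusted p = 0.0742). Further down, Eno1 had the largest change of the 10: 159 and 147 TPM in WT and 301 and 294 TPM in cKO, an increase of 0.96 ± 0.10 (limma adjusted p = 0.000156), or 1.94-fold. Pkm rose 1.65-fold, from 381 and 356 TPM to 627 and 592 TPM (log2 0.73 ± 0.10, limma adjusted p = 0.000465). Ldha rose 1.60-fold, from 543 and 523 TPM to 852 and 854 TPM (log2 0.68 ± 0.10, limma adjusted p = 0.000577). Both the Ldha and the Eno1 replicates were closer to each other than to any library of the other genotype.

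The median change over all genes in cDC1s lay above 0 in TPM. When the libraries were scaled by the median of ratios instead, the median over all genes was 0.02 in place of 0.17, and 50.0% of the called genes were higher in place of 70.7%. Under that scaling the same 4 glycolysis genes were called higher, with Eno1 at 0.78, Pkm at 0.55, Pfkl at 0.54 and Ldha at 0.51, and the median of the 10 was 0.38. Gpi1 then stood at -0.02.

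In cDC2s, 3 of the 10 genes rose and none fell, against 3.59% of all genes called higher and 3.56% called lower. They were Pgk1, Eno1 and Pkm, of which Eno1 and Pkm were also called in cDC1s. The median of the 10 was 0.34, against -0.03 over all genes tested. All 3 cKO libraries lay above all 3 WT libraries for 5 of the 10 genes, Aldoa, Pgk1, Eno1, Pkm and Ldha, and for 16.3% of all genes.

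Of the 5 members that act before the cleavage of the sugar, none was called in cDC2s. Slc2a1 was 18.5, 16.0 and 17.4 TPM in WT and 18.9, 15.8 and 20.0 TPM in cKO, a difference of 0.07 (95% interval -0.16 to 0.30). For Hk2 the difference was -0.03 (95% interval -0.36 to 0.29), for Hk1 0.15 (-0.13 to 0.42), for Gpi1 0.13 (-0.13 to 0.39) and for Pfkl 0.29 (0.01 to 0.57), and for all 4 the groups overlapped. Of these 5 intervals, only that of Pfkl reached 0.5, the size required for a call. Aldoa was 202, 195 and 219 TPM in WT and 286, 230 and 292 TPM in cKO, a difference of 0.38 ± 0.12 (limma adjusted p = 0.0448).

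The members called in cDC2s act at later steps, but changes before the cleavage were seen outside the member list. Pfkp, another phosphofructokinase, rose by 0.77 in cDC2s with the replicate number as a block (log2, limma adjusted p = 0.00872). Slc2a3, another glucose transporter, went the other way in that fit, at -0.87 (limma adjusted p = 0.0144). Pgk1 was 103, 105 and 88.6 TPM in WT cDC2s and 133, 164 and 154 TPM in cKO cDC2s, an increase of 0.60 ± 0.10 (limma adjusted p = 0.00392) or 1.51-fold. Eno1 was 335, 358 and 403 TPM in WT and 562, 566 and 551 TPM in cKO, an increase of 0.62 ± 0.08 (limma adjusted p = 0.00125) or 1.53-fold. Pkm was 319, 360 and 365 TPM in WT and 499, 514 and 495 TPM in cKO, an increase of 0.53 ± 0.08 (limma adjusted p = 0.00201). For each of the 3 genes the lowest cKO library was above the highest WT library. Ldha was 290, 308 and 309 TPM in WT and 393, 454 and 417 TPM in cKO. Its change of 0.48 ± 0.08 passed the limit on p (limma adjusted p = 0.00315) and missed only the limit on size. The count of 3 rested on individual libraries: without cKO cDC2 replicate 3 it was 1, Eno1, and with cDC2 libraries fitted alone it was also 1, Eno1. Over all genes the number called higher went from 410 to 153 without that library and to 204 with cDC2s fitted alone.

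**Figure D2:**
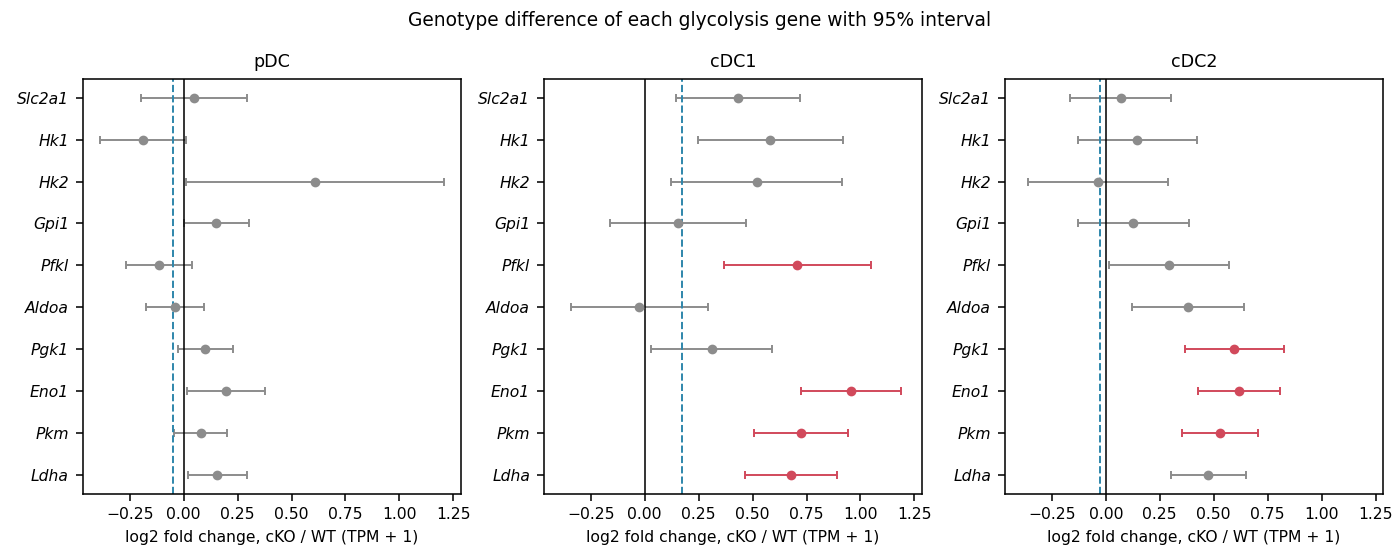
Difference between cKO and WT on the log2(TPM + 1) scale (horizontal axes) for each of the 10 genes in pDCs, cDC1s and cDC2s, with points for the limma estimate and whiskers for its 95% interval. Red marks the genes called, grey the others, and the dashed blue line the median over all genes tested. Eno1 and Pkm are red in both cDC subsets, Pfkl and Ldha in cDC1s, Pgk1 in cDC2s, and none in pDCs.

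In pDCs no gene of the 10 passed the test, and 1.05% of all 11299 genes tested did. An unadjusted p under 0.05 was seen for 4 of the 10, Hk2, Gpi1, Eno1 and Ldha, and for 20.8% of all genes. With same-numbered pDC libraries paired it was seen for 5 of the 10 and 30.8% of all genes, with no member called. The count was 0 without WT pDC replicate 3, 1 without cKO pDC replicate 1, 2 without any other single library, and 0 with eBayes run without the trend. The share of all genes was then 14.6%, 18.7%, 15.6% to 19.6% and 20.7%, in the same order. The median change of the 10 was 0.09, against -0.05 over all genes. Eno1 was 140, 137 and 126 TPM in WT and 169, 142 and 151 TPM in cKO, a difference of 0.20 (95% interval 0.02 to 0.38, limma adjusted p = 0.207). Ldha was 254, 262 and 252 TPM in WT and 295, 267 and 296 TPM in cKO, a difference of 0.16 (95% interval 0.02 to 0.29). Pkm was 253, 264 and 243 TPM in WT and 272, 265 and 266 TPM in cKO, a difference of 0.08 (95% interval -0.04 to 0.20). The groups did not overlap for 5 of the 10 genes, Pgk1, Eno1, Pkm and Ldha being higher and Pfkl lower in cKO, a separation seen for 27.5% of all genes. The intervals of 9 of the 10 genes stayed under 0.5, and Hk2 was the exception. It was 4.39, 2.37 and 2.53 TPM in WT and 7.52, 4.47 and 3.88 TPM in cKO, a difference of 0.61 (95% interval 0.01 to 1.21) with overlapping groups.

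Whether the genotype effect differed between the cDC subsets was tested as the difference of the 2 effects. No gene of the 10 passed, and 2.56% of all genes did. An unadjusted p under 0.05 was seen for 3 of the 10, Hk1, Hk2 and Eno1, and for 30.7% of all genes. With the replicate number as a block it was seen for 5 of the 10 and 28.4% of all genes. Without cKO cDC2 replicate 3 it was seen for 1 of the 10 and 24.2% of all genes. Without cKO cDC1 replicate 1, which leaves 1 library in that group, the members' median difference was 0.26, against 0.20 over all genes. The difference was 0.34 for Eno1 (95% interval 0.04 to 0.64, limma adjusted p = 0.120), 0.20 for Ldha (-0.07 to 0.48) and 0.20 for Pkm (-0.09 to 0.48). Aldoa and Pgk1 went the other way, at -0.41 (-0.82 to 0.00) and -0.29 (-0.65 to 0.08). Pfkl and Ldha were called only in cDC1s and Pgk1 only in cDC2s, but for none of them did the tested difference between subsets pass. The median over all genes in this contrast was 0.22 and fell to 0.01 under median-of-ratios scaling, where the members' median went from 0.27 to 0.05.

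The WT cDC subsets themselves differed in these genes, and in opposite directions. Of the 10, 3 were higher in WT cDC1s, Aldoa, Pgk1 and Ldha, and 2 were lower, Hk1 and Eno1, against 10.9% of all genes called higher and 20.8% called lower. Pgk1 was 2.58-fold higher in cDC1s (log2 1.37 ± 0.11, limma adjusted p = 4.95e-06), Ldha 1.76-fold (0.82 ± 0.09, limma adjusted p = 3.12e-05) and Aldoa 1.66-fold (0.73 ± 0.13, limma adjusted p = 0.00102). Eno1 had a difference of -1.25 ± 0.09 (limma adjusted p = 2.29e-06) and Hk1 of -0.90 ± 0.14 (limma adjusted p = 0.000401). Pkm had a difference of 0.08 (95% interval -0.12 to 0.28). The ratio of Ldha to Eno1 was 3.41 and 3.55 in the WT cDC1 libraries and 0.77 to 0.86 in the WT cDC2 libraries. In cKO cells it was 2.83 and 2.90 in cDC1s and 0.70 to 0.80 in cDC2s, so the order of the subsets was kept in both genotypes. The level of Eno1 in cKO cDC1s, 294 and 301 TPM, stayed under that of WT cDC2s, 335 to 403 TPM. All 5 calls held when TPM was replaced by median-of-ratios scaled values, quantile-normalised values or FPKM, a value scaled by gene length and depth, and the median over all genes was -0.17 in TPM and 0.01 under median-of-ratios scaling.

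**Figure D3:**
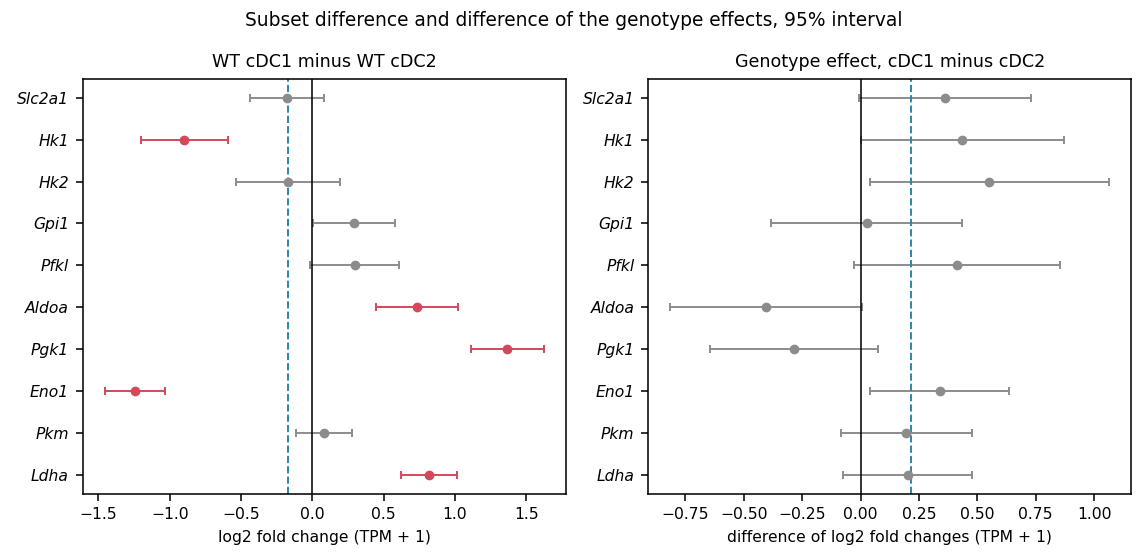
Left, difference between WT cDC1s and WT cDC2s on the log2(TPM + 1) scale; right, the genotype effect in cDC1s minus that in cDC2s on the same scale, for each of the 10 genes. Points are limma estimates, whiskers 95% intervals, red marks genes called, and the dashed blue line is the median over all genes. On the left Pgk1, Ldha and Aldoa lie to the right of 0 and Eno1 and Hk1 to the left; on the right no gene is called.

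The other glycolytic enzymes and transporters formed a list of 27 genes, of which 22 were tested in cDCs and 19 in pDCs. In cKO cDC1s 5 rose and 5 fell, against 15.8% of all genes called higher and 6.56% called lower. In cKO cDC2s 4 rose and 3 fell, against 3.59% called higher and 3.56% called lower. In pDCs none was called, against 1.05% of all genes. An unadjusted p under 0.05 was seen there for 2 of the 19, and for 20.8% of all genes. Tpi1, triosephosphate isomerase, was 88.9 and 89.8 TPM in WT cDC1s and 197 and 198 TPM in cKO cDC1s, an increase of 1.14 (limma adjusted p = 0.000108), and it rose by 0.92 in cDC2s (limma adjusted p = 0.000265). Gapdh, the dehydrogenase of the next step and a common reference gene, was 1541 and 1581 TPM in WT cDC1s and 2785 and 2815 TPM in cKO cDC1s, an increase of 0.84 (limma adjusted p = 0.000438). It rose by 0.53 in cDC2s (limma adjusted p = 0.00414), and in pDCs the difference was 0.38 (limma adjusted p = 0.0129). Pgam1, phosphoglycerate mutase, rose by 0.53 in cDC1s, and its difference of 0.49 in cDC2s missed the limit on size.

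Other genes of this list fell. Pfkfb3, which makes the allosteric activator of phosphofructokinase, was 165 and 296 TPM in WT cDC1s and 47.1 and 50.9 TPM in cKO cDC1s, a change of -2.15 (limma adjusted p = 0.000197). In cDC2s it was 111 to 156 TPM in WT and 102 to 129 TPM in cKO, a difference of -0.18. Eno2, the neuronal enolase, was 12.2 and 26.3 TPM in WT cDC1s and 1.54 and 2.08 TPM in cKO cDC1s, a change of -2.76 (limma adjusted p = 0.000543). Slc2a6, a lysosomal hexose transporter, also fell in cDC1s, by 1.47 on the log2 scale. Slc2a3, which encodes the high-affinity transporter GLUT3, went in opposite directions: 1.93 and 3.86 TPM in WT cDC1s against 7.26 and 7.35 TPM in cKO cDC1s, but 81.2 to 94.9 TPM in WT cDC2s against 44.4 to 53.8 TPM in cKO cDC2s. The changes were 1.14 in cDC1s (limma adjusted p = 0.00196) and -0.87 in cDC2s (limma adjusted p = 0.00643). Ldhb, the lactate dehydrogenase subunit favouring pyruvate formation, fell by 0.99 in cDC2s, from 6.06 to 8.66 TPM in WT to 2.38 to 4.15 TPM in cKO (limma adjusted p = 0.00565).

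Isoenzyme balance differed between the subsets, and these pairs were chosen after their values were seen. The ratio of Ldha to Ldhb was 2.01 to 2.66 in WT pDCs, 35.7 to 50.8 in WT cDC2s and 1043 and 1112 in the WT cDC1 libraries, where Ldhb was at most 0.52 TPM. In cKO cDC2s it was 109 to 175, above every WT cDC2 library. The ratio of Hk1 to Hk2 was 10.1 to 16.7 in WT pDCs and 5.19 to 8.79 in cKO pDCs, whereas in WT cDC1s it was 0.60 and 0.77. Hk3, the hexokinase of myeloid cells, stood at 94.2 and 136 TPM in WT cDC1s, above Hk1 and Hk2, and at 4.58 to 7.30 TPM in WT cDC2s. Pfkp, the platelet-type phosphofructokinase, was higher than Pfkl in cDC1s and pDCs and lower than Pfkl in cDC2s of both genotypes. Eno3, the muscle enolase, was 43.0 and 64.7 TPM in WT cDC1s and 25.9 and 27.2 TPM in cKO cDC1s (log2 -0.96, limma adjusted p = 0.00554), so that the ratio of Eno1 to Eno3 went from 2.46 and 3.43 to 10.8 and 11.6. In cDC2s this ratio was 2.11 to 3.09 in WT and 6.72 to 7.98 in cKO. Listed near-copies of the members were at most 0.58 TPM in cDCs, among them Eno1b, and at most 3.80 TPM in pDCs.

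**Figure D4:**
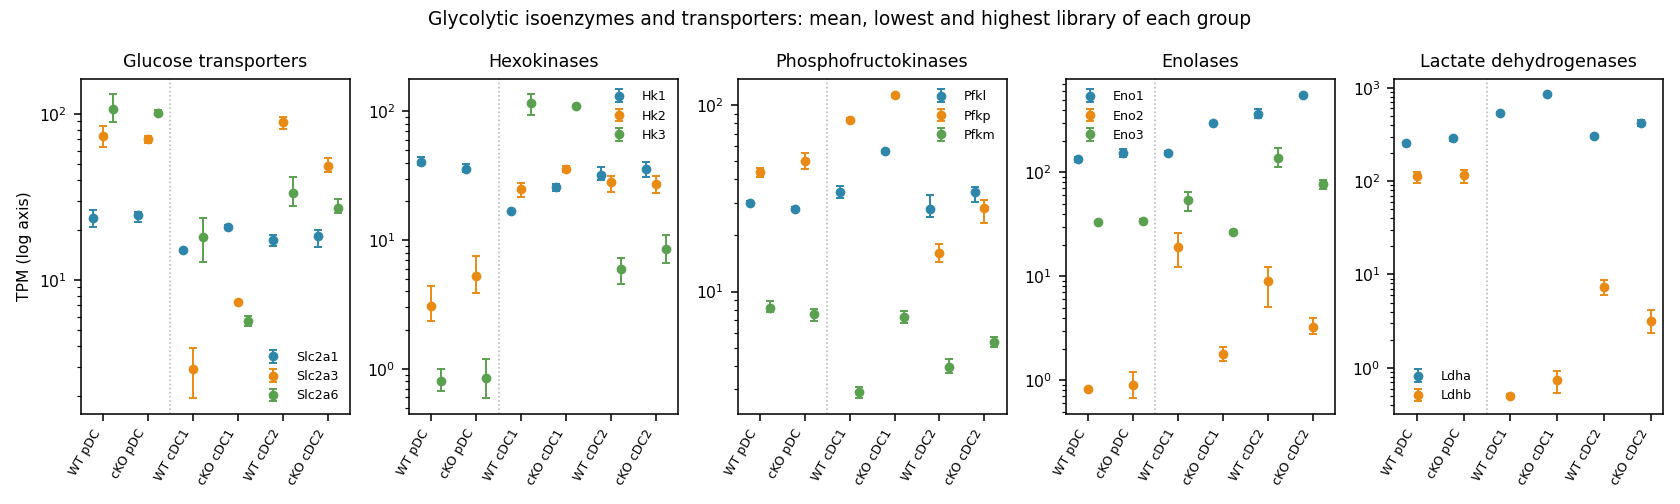
Level in TPM (vertical axes, log scale) of glucose transporters, hexokinases, phosphofructokinases, enolases and lactate dehydrogenases in the 6 groups, with points for group means and whiskers from the lowest to the highest library. The dotted line parts the separately normalised pDC and cDC tables. Ldhb is at 95.5 TPM or more in pDCs and at 8.66 TPM or less in cDCs, Hk3 is at 94.2 TPM or more in cDC1s, and Eno1 rises while Eno3 falls in both cKO cDC subsets.

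Pathways that branch from or follow glycolysis were taken from lists of the same kind. Of all genes tested, 15.8% were called higher in cKO cDC1s, 3.59% higher in cKO cDC2s and 1.05% in either direction in pDCs. Of 10 pentose phosphate genes 5 rose in cKO cDC1s and 1 in cKO cDC2s, and none fell. The largest in cDC1s were Tkt, a transketolase, at 1.12, Prps2 at 0.93, G6pdx, the dehydrogenase at the entry to the pathway, at 0.87 and Prps1 at 0.86, and Pgd rose by 0.62 in cDC2s. Of 14 genes for pyruvate entry into mitochondria 4 rose in cKO cDC1s, Dlat, Pdha1 and Pdhx of the pyruvate dehydrogenase complex and Pdk1, its inhibitory kinase, with values of 0.70, 0.65, 0.52 and 0.50. In cDC2s 1 rose, Pdk3, by 0.70, and in pDCs 1 fell, Mpc1, a subunit of the mitochondrial pyruvate carrier. Mpc1 was 173 to 186 TPM in WT pDCs and 78.1 to 82.1 TPM in cKO pDCs, a change of -1.15 (limma adjusted p = 0.000146). In WT cDC1s Mpc1 was 93.2 and 107 TPM and in cKO cDC1s 93.8 and 104 TPM. Of 16 genes of the tricarboxylic acid cycle 6 rose in cDC1s, with Idh3a at 1.06, Suclg2 at 0.66, Fh1 at 0.58 and Sdhc at 0.54 the largest, and none was called in cDC2s or pDCs. Of 11 glycogen and gluconeogenesis genes 4 rose in cDC1s, Pck2, Gbe1, Pygb and Ugp2, by 0.56 to 0.93. These counts in cDC1s depended on the scaling: with median-of-ratios scaling 3 pentose phosphate genes, 1 gene of pyruvate entry, 1 of the tricarboxylic acid cycle and 3 of glycogen and gluconeogenesis were called higher. Of all 11411 genes tested, 1067 were called higher in cDC1s under that scaling. In cDC2s the count of pentose phosphate genes was 3 with FPKM and with median-of-ratios scaling. Over all genes 524 of 10725 and 578 of 11411 were then called higher in cDC2s.

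Of 18 further targets and regulators of the hypoxia response, 1 was called in cKO cDC1s, Pdk1, and 1 in cKO cDC2s, Ndrg1, at 0.97. Both were called higher, as were 15.8% of all genes in cDC1s and 3.59% in cDC2s. The median change of the 18 was 0.10 in cDC1s and -0.01 in cDC2s. In cDC1s the call was lost with median-of-ratios scaling, under which 2 others were called lower. Hif1a was 43.9 and 48.2 TPM in WT cDC1s and 44.3 and 48.2 TPM in cKO cDC1s, a difference of 0.01 ± 0.10. Of 15 regulators of glucose use, 1 was called, Myc in cDC1s. It was 16.3 and 23.0 TPM in WT cDC1s and 80.9 and 90.4 TPM in cKO cDC1s, an increase of 2.09 ± 0.25 (limma adjusted p = 0.000242). In cDC2s Myc was 22.1 to 38.2 TPM in WT and 32.96 to 45.3 TPM in cKO, a difference of 0.45 (limma adjusted p = 0.148), and in pDCs 0.60 to 2.22 TPM against 3.40 to 6.79 TPM (log2 1.23, limma adjusted p = 0.0669). With same-numbered pDC libraries paired, 1 gene of each of these lists was called higher in pDCs, Myc (limma adjusted p = 0.00275) and Ndrg1 (limma adjusted p = 0.000904).

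Genes of other programmes moved in the same libraries. Over all genes tested 15.8% were called higher and 6.56% lower in cDC1s, and 3.59% higher and 3.56% lower in cDC2s. In pDCs 1.05% were called in either direction, and 335 of 11299 genes with same-numbered pDC libraries paired. Of 22 cell cycle genes 16 rose in cKO cDC1s, 8 in cKO cDC2s and 9 in cKO pDCs, with medians of 1.16, 0.60 and 1.43, and with same-numbered pDC libraries paired 19 rose in pDCs. The summed level of that list was 944 and 1205 TPM in WT cDC1s and 2664 and 2682 TPM in cKO cDC1s, 1184 to 1472 TPM against 1956 to 2351 TPM in cDC2s, and 398 to 465 TPM against 629 to 811 TPM in pDCs. Of 8 heat shock genes 7 rose in cDC1s, or 4 with median-of-ratios scaling or quantile normalization, and 1 in cDC2s, and their sum was 765 and 976 TPM in WT cDC1s against 4651 and 5435 TPM in cKO cDC1s. Of 19 DC maturation genes 17 fell in cDC1s and 5 in cDC2s, and their sum was 2796 and 3821 TPM in WT cDC1s against 810 and 968 TPM in cKO cDC1s. Of 11 monocyte and macrophage markers 2 rose and 2 fell in cDC1s and 2 rose in cDC2s, where their sum was 1392 to 1936 TPM in WT and 2700 to 3527 TPM in cKO. None of these 11 was at 0 throughout a group. Red cell genes summed to between 385 and 10740 TPM over the WT cDC libraries, and none of the 7 was called. The part of these programmes and of other cells in the glycolysis values was not tested.

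Across the 10 cDC libraries the members did not follow a single pattern. The correlation with the mean standardised level of all 10 was 0.94 for Pfkl and 0.90 for Pkm, but 0.12 for Hk1 and 0.15 for Eno1. Hk1 and Eno1 followed each other (r = 0.94), as did Pgk1 and Ldha (r = 0.96), while Hk1 and Pgk1 were opposed (r = -0.67). These coefficients describe libraries that share genotype and subset and carry no test. Outside the list, the genes closest to the members' mean were Nup188, a nuclear pore protein (r = 0.99), Fbxw8, Nol6, which acts in ribosome assembly, Zpr1 and Cad, which starts pyrimidine synthesis, all at 0.99. Of all other genes tested 13.2% reached 0.8. Across the 6 pDC libraries the closest were Snrnp40, a spliceosome component, Naa10, Mrps36, Igsf8 and Sulf2, with r from 0.98 to 0.99, and 5.54% of genes reached 0.8. There Pfkl was opposed to the members' mean (r = -0.87).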

How the data were processed

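RNA-seq libraries of sorted splenic DCs were read from the values the authors deposited. The deposited TPM values, and the FPKM values used as an alternative, were made by the authors from single-end reads of 50 bases with tools that the submitters' processing notes name as HISAT2 2.0.4, Bowtie2 2.2.5 and RSEM 1.2.12, and whole counts were not used here. Gene IDs were matched to RefSeq symbols of GRCm38.p6, which named 17079 of the 17128 pDC rows and 17667 of the 17721 cDC rows.

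log2(TPM + 1) was fitted with limma 3.58.1 in R 4.3.3 (trended eBayes) over genes with a mean of at least 1 TPM, the 6 pDC libraries alone and the 10 cDC libraries as 4 groups. Calls took a Benjamini-Hochberg adjusted p of at most 0.01 over all genes tested and a change of at least 0.5. Fold changes are on the log2(TPM + 1) scale and understate changes of low genes. Per the study each library was a biological repeat pooled over mice, so p-values measure the spread between pools, and the unequal size of WT and cKO pools cannot be told apart from genotype.

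Members and lists were chosen with earlier results of these data known. Named were all members, Trim33, up to 4 called genes with the largest change per list and comparison, Gapdh, Tpi1 and Pgam1, and the 5 genes per table most like the members' mean. Same-numbered WT and cKO pDC libraries deviated together (r = 0.31, 0.39 and 0.21), so the numbers were taken to pair them. Depth was estimated by scanning 12000000 to 30000000 reads, and both procedures were tested on simulated data. Promoter windows came from RefSeq, and protein sequences were not used here.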

Additional observations from a re-analysis of the deposited data

Results flagged for a closer look

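Of the other glycolytic genes, 2 differed in genotype effect between cDC1s and cDC2s by the test of that difference. None of the 10 members did. Of the DC markers named above, Itgae (-2.26), Pacsin1 (-1.60) and Ccr9 (-1.10) also passed it. For Slc2a3 the cDC1 effect minus the cDC2 effect was 2.01 on the log2 scale (limma adjusted p = 0.00208, or 0.00952 with the replicate block), with both cKO cDC1 libraries above both WT libraries and all 3 cKO cDC2 libraries below all 3 WT libraries. Its level in WT cDC1s was low, at most 3.86 TPM. For Pfkfb3 the difference was -1.97 (limma adjusted p = 0.00552), which did not pass with the replicate block (0.0229), with both cKO cDC1 libraries below both WT libraries and overlapping groups in cDC2s. Its WT cDC1 libraries differed from each other, at 165 and 296 TPM.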

How the results depend on the processing

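Eno1 kept its call in cDC1s and cDC2s, and Pkm and Ldha in cDC1s, under every alternative run. No member was called in pDCs or in the difference of effects under any. With the adjusted p allowed up to 0.05 and any size of change, 7 members were called in cDC1s and 5 in cDC2s, all higher. Of all 11411 genes tested, 4522 were then called in cDC1s, 3251 of them higher, and 2274 in cDC2s, 1111 of them higher. With cDC2s fitted alone 1 member was called, and leaving out single cDC2 libraries gave 1 to 4 members in cDC2s, with 1 without cKO cDC2 replicate 3. Over all genes 816 were called in cDC2s in the main fit and 316 without that library. Leaving out a cDC1 library leaves 1 in its group, which is assumed to vary like the other groups.

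Pfkl in cDC1s also lost its call with no filter on low values (limma adjusted p = 0.0106) and with quantile normalization (0.0108), and Pgk1 in cDC2s with the replicate block (0.0121). Aldoa between WT subsets was lost without WT cDC1 replicate 1 (0.0154). Ldha in cDC2s was called with FPKM (0.52), median-of-ratios scaling (0.53) and quantile normalization (0.52).

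Uncalled differences that changed sign were those of Gpi1 between effects (FPKM -0.082, median-of-ratios -0.199, quantile -0.028, leave-one-out -0.084 to 0.099), Gpi1 in cDC1s (median-of-ratios -0.019), Hk2 in cDC2s (FPKM 0.0061, median-of-ratios 0.016, leave-one-out -0.143 to 0.076), Hk2 between WT subsets (median-of-ratios 0.019, leave-one-out -0.342 to 0.0021), Slc2a1 between WT subsets (median-of-ratios 0.0073, quantile 0.038), Slc2a1 in pDCs (leave-one-out -0.041 to 0.128), Aldoa in cDC1s (leave-one-out -0.186 to 0.137), and Ldha and Pkm between effects (median-of-ratios -0.0217 and -0.028). The cause of these shifts was not tested.

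With the replicate number as a block 4 members were called in cDC1s, 2 in cDC2s and 0 in pDCs and between effects, and over all genes the pDC calls went from 119 to 335, the cDC2 calls from 816 to 356 and the calls between effects from 292 to 95. Of the other glycolytic genes 2 then rose and 0 fell in cDC2s. Numbers did not pair the cDC2 libraries (r = -0.25, 0.25 and -0.16). In cDC1s r was -0.23, and the crossed pairing, chosen after seeing the data, called 5 members and 2091 genes. A block shared over subsets, also added later, called 5 members between WT subsets. With no filter on low values 24 genes were called in pDCs, with cDC2s fitted alone 444 over all genes, and at the looser threshold 514 in pDCs, 4522 in cDC1s and 2274 in cDC2s. Depth was estimated and not read from the files, and 2 libraries per cDC1 group limit its precision.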
